A study of Mus musculus with 17 samples.

Results

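The Hox genes are homeobox transcription factor genes that lie in 4 chromosomal clusters, and the 39 protein-coding members were read in 17 bulk RNA-seq libraries of mouse bone cells. Members were chosen by name only, as every protein-coding gene called Hoxa, Hoxb, Hoxc or Hoxd followed by a number, out of 55335 genes in the count files. The libraries came from skeletal stromal/stem cells (SSCs, positive for Sca-1, CD51 and PDGFRα) and osteoprogenitor cells (OPCs, negative for Sca-1, positive for CD51 and with or without PDGFRα), both sorted after removal of CD45+, TER119+ and CD31+ cells, of flushed and digested femurs, tibias and hips. The 3 genotypes compared were Cxcr4+/+ (WT), Cxcr4+/1013 (+/1013) and Cxcr4 1013/1013 (1013/1013), where 1013 is a knock-in allele that truncates the tail of the chemokine receptor CXCR4 in every cell, as in the WHIM immunodeficiency syndrome. The methods describe littermate females of 8 to 12 weeks, and the strain is not given in the sources used here. Each library was a pool of 3000 cells from 3 mice, with 3 libraries per cell type and genotype, except 2 for 1013/1013 SSCs. Because femur, tibia and hip were combined, a level is an average over bones and over the cells of a pool. In such bulk samples, fewer cells that carry a transcript and less transcript per cell cannot be told apart.

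Hox proteins bind DNA through the homeodomain, often together with cofactors such as Meis proteins, and give cells their position along the body axis and along the limb. Genes at the same place in the different clusters are paralogues and carry the same number. Low numbers are used towards the head, and high numbers towards the tail and, in limbs, in the outer segments. In the mouse hind limb, group 10 is best known for the upper segment (femur), group 11 for the middle segment (tibia and fibula) and group 13 for the foot. The Hoxa and Hoxd clusters lead the limb programme. Adult skeletal cells keep part of the code of their embryonic origin.

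The clusters lie in mm10 on chromosome 6 (Hoxa, 52155590 to 52260880, 11 members, minus strand), chromosome 11 (Hoxb, 96194316 to 96368256, 10 members, plus strand), chromosome 15 (Hoxc, 102921103 to 103036852, 9 members, plus strand) and chromosome 2 (Hoxd, 74668310 to 74765142, 9 members, plus strand). Depth ran from 64099849 to 92683497 counts on genes in OPCs and from 44217695 to 50509592 in SSCs. The Hox share of all counts was 0.00676% to 0.0123% in OPCs and 0.0138% to 0.0224% in SSCs. A count of 3 was taken as the limit of detection, which was 0.0407 to 0.0628 CPM (the usual depth-scaled count, here on TMM-adjusted library sizes) in OPCs and 0.0449 to 0.0575 CPM in SSCs. Such limits, and the counting intervals given for ratios, cover counting error alone, because reads amplified by PCR were not tagged per molecule. The 1013/1013 SSC replicate 1 stood apart, with 15748 genes at a count or more against 17808 to 22599 in the other SSC libraries, and with 16 Hox members over 3 counts against 22 to 30. Sca-1 transcript (Ly6a) checked the sort, at 386 to 1450.1 CPM in SSCs and 0.569 to 12.4 CPM in OPCs. Of the 4 listed genes of the SSC gate, 3 were called higher and 1 lower in SSCs in the mean comparison described below. The lower gene was Itgav, which encodes CD51, a marker used in both sorts. It reached 59.7 CPM in SSCs and 68.7 CPM in OPCs, with overlapping ranges. The osteoblast gene Bglap was at 497 to 2985 CPM in OPCs and 5.15 to 50.1 CPM in SSCs. The counts cannot show the 1013 allele itself.

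The results turn on paralogues of groups 10 and 11, so their homeobox sequences are shown to make visible how far a read can tell them apart. Each is the 180-base coding stretch of the DNA-binding homeodomain, read 5′ to 3′ from the GENCODE M21 transcripts (mm10), and lies in the second of 2 exons. Capitals mark positions that are not the same in all 3 paralogues of the group.
Hoxa10, exon 2, chr6:52232554-52232733, minus strand: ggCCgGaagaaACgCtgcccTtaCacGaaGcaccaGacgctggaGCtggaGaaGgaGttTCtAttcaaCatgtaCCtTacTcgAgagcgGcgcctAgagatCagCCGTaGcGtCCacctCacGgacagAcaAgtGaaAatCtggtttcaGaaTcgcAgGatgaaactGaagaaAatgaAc
Hoxc10, exon 2, chr15:102970848-102971027, plus strand: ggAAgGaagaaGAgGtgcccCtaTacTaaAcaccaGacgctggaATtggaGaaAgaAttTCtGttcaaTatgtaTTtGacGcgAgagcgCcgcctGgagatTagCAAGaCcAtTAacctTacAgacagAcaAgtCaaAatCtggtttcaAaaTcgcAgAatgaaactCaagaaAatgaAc
Hoxd10, exon 2, chr2:74694141-74694320, plus strand: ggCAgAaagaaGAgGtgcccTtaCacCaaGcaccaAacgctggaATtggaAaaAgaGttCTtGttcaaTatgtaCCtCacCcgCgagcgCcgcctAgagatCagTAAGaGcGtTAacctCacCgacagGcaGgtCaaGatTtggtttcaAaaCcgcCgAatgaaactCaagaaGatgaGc
Hoxa11, exon 2, chr6:52243402-52243581, minus strand: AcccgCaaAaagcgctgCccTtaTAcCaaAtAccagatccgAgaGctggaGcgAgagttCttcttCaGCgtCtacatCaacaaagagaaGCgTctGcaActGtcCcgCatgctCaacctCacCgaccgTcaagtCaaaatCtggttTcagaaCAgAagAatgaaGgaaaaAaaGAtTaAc
Hoxc11, exon 2, chr15:102956480-102956659, plus strand: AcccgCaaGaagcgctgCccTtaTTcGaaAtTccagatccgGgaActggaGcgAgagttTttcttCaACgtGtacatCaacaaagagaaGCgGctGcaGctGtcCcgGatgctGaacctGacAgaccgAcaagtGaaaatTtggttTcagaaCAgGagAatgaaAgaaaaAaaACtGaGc
Hoxd11, exon 2, chr2:74683917-74684096, plus strand: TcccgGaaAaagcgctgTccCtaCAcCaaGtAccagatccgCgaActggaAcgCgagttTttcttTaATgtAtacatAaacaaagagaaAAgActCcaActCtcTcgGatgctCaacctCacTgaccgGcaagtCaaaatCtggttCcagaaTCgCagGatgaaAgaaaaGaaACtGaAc
In group 10, Hoxd10 was identical to Hoxa10 at 142 of 180 positions and to Hoxc10 at 149 of 180. In group 11, Hoxd11 was identical to Hoxa11 at 145 of 180 positions and to Hoxc11 at 143 of 180. Over whole transcripts of the Hoxa, Hoxc and Hoxd paralogues of groups 9, 10 and 11, the longest identical run of a pair was 12 to 31 bases, which is shorter than the 50 bases of the shortest read kept. Sharing of exon bases with other annotated genes is a further limit, since the library kit does not mark strand and the strand setting of the counting is not given in the sources used here. The share of exon bases not shared with another gene was 37.15% for Hoxd3, 47.1% for Hoxb3, 47.7% for Hoxd4 and 65.0% for Hoxa11, which overlaps the antisense gene Hoxa11os. It was 72.7% for Hoxb2, 72.9% for Hoxa3 and 79.6% for Hoxa7, and from 84.0% to 100% for the other members.

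The first question was which part of the Hox code the 2 cell types carried. Both carried a code centred on group 10, with Hoxa10 and Hoxc10 in front in OPCs and Hoxa10 and Hoxa11 in front in SSCs. Levels between genes are given as CPM per kb of exon. In OPCs Hoxa10 had a mean level of 8.89 ± 1.90 CPM per kb (SD, n = 9) and Hoxc10 of 6.65 ± 0.804, and their ranges overlapped. Hoxc8 followed at 3.52 ± 1.74, and Hoxa7, Hoxd8, Hoxc9, Hoxc6, Hoxc5, Hoxb2 and Hoxa5 lay between 2.73 and 1.43 CPM per kb, each overlapping its neighbours in the order. In SSCs Hoxa10 reached 14.3 ± 3.27 CPM per kb (SD, n = 8), and its lowest library (8.80) was above the highest library of the next gene, Hoxa11 (6.28 ± 1.53, highest 8.05). Hoxc10 (5.07 ± 1.15), Hoxd8 (4.39 ± 1.18), Hoxa7 (4.16 ± 1.09), Hoxd9 (3.202 ± 0.489), Hoxa9 (2.99 ± 0.588), Hoxc9 (2.67 ± 1.14) and Hoxd10 (2.06 ± 1.17) followed in SSCs, with overlapping ranges between neighbours. The Hoxb cluster was the lowest of the 4 in SSCs, where its highest member was Hoxb7 at 0.179 ± 0.210 CPM per kb, while in OPCs its highest member was Hoxb2 at 1.66 ± 0.744.

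**Figure D1:**
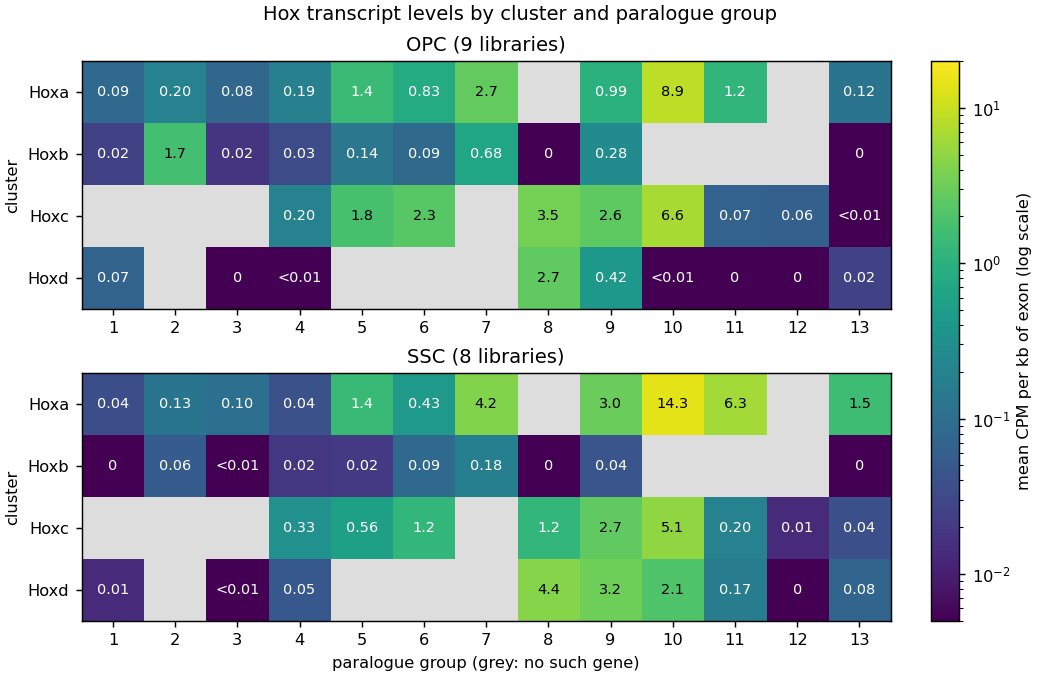
Mean level of each Hox member in CPM per kb of exon (colour on a log scale, value printed in the cell), with the 4 clusters as rows and the paralogue groups 1 to 13 as columns, for 9 OPC libraries (top) and 8 SSC libraries (bottom), and grey where no gene exists. The Hoxb row is low in SSCs, and the Hoxd10 and Hoxd11 cells go from 0.00238 and 0 in OPCs to 2.06 and 0.167 in SSCs.

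Detection gave the same picture in counts of libraries. More than 3 counts in all 17 libraries were found for 11 members, namely Hoxa5, Hoxa7, Hoxa9, Hoxa10, Hoxa11, Hoxc6, Hoxc8, Hoxc9, Hoxc10, Hoxd8 and Hoxd9. This limit was passed in all 9 OPC libraries by 16 members, of which Hoxa3, Hoxa6, Hoxb2, Hoxb7 and Hoxc5 did not pass it in every SSC library. It was passed in all 8 SSC libraries by 15 members, of which Hoxa13, Hoxc4, Hoxc11 and Hoxd10 did not pass in every OPC library. Hoxd10 was the 1 member at or under 3 counts in every OPC library and over 3 in every SSC library. Hoxb8, Hoxb13 and Hoxd12 had 0 counts in all 17 libraries, and Hoxd3 had at most 2. The 4 were not detectable at this depth.

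The make-up of the Hox pool was computed per library as the percent of the summed CPM per kb of all members, a ratio that does not depend on the library scaling. Paralogue groups 9 to 13 made up 49.7% to 56.5% of the pool in OPCs (mean 53.1% ± 2.49, SD, n = 9) and 67.6% to 80.2% in SSCs (72.6% ± 4.92, n = 8). The ranges did not overlap. Within this segment group 10 had nearly the same share in both, at 38.9% ± 2.18 in OPCs and 40.2% ± 4.18 in SSCs, whereas group 11 had 3.04% ± 1.01 in OPCs and 12.5% ± 2.25 in SSCs. Group 13 had 0.373% ± 0.444 in OPCs and 3.04% ± 1.62 in SSCs. By cluster, Hoxa made up 41.6% ± 2.65 of the OPC pool and 59.1% ± 4.39 of the SSC pool, and Hoxd 7.87% ± 2.12 and 18.9% ± 2.68. Hoxc went the other way, at 43.0% ± 4.61 in OPCs and 21.2% ± 3.77 in SSCs, as did Hoxb, at 7.59% ± 4.33 and 0.760% ± 0.839. Hoxb was the 1 cluster whose ranges overlapped, with 2.17% in the lowest OPC library and 2.66% in the highest SSC library. The summed level was 40.0 ± 5.75 CPM per kb in OPCs and 53.0 ± 7.76 in SSCs, and on plain library totals it was 33.8 ± 6.99 and 64.7 ± 10.2. Type I collagen transcripts (Col1a1 and Col1a2) took 16.1% to 38.7% of OPC counts and 0.563% to 2.78% of SSC counts, and their part in the summed level was not tested.

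**Figure D2:**
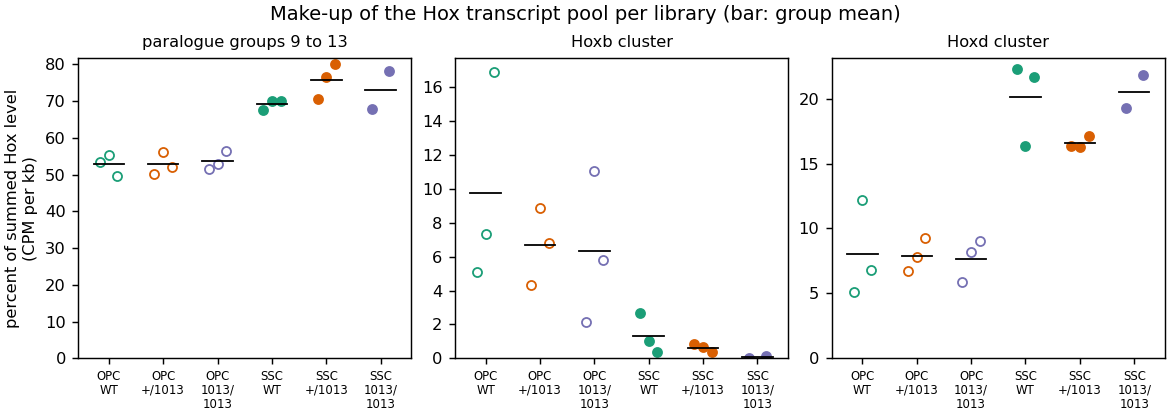
Percent of the summed Hox level (CPM per kb) in each library taken by paralogue groups 9 to 13 (left), the Hoxb cluster (middle) and the Hoxd cluster (right), by cell type and genotype, with points for libraries, open for OPCs and filled for SSCs, and bars for group means. All 8 SSC libraries lie above all 9 OPC libraries in the left and right panels, from 67.6% against up to 56.5%, and from 16.3% against up to 12.2%.

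Comparing SSCs with OPCs over the 3 genotypes asked which members differed between the cell types. Of the members, 9 were higher in SSCs (Hoxa9, Hoxa10, Hoxa11, Hoxa13, Hoxc13, Hoxd8, Hoxd9, Hoxd10 and Hoxd11) and 7 were lower (Hoxa6, Hoxb2, Hoxb5, Hoxb7, Hoxc5, Hoxc6 and Hoxc8). A call required a 1.5-fold change and a p under 0.05 in edgeR's quasi-likelihood test after Benjamini-Hochberg adjustment over the 20238 genes tested. The 16 called are of 32 tested, while 30.2% of all genes tested were called (15.3% higher and 14.9% lower in SSCs). The other 7 members (Hoxb1, Hoxb3, Hoxb8, Hoxb13, Hoxc12, Hoxd3 and Hoxd12) had too few counts to be tested. Along the clusters the changes called in the main fit were split by paralogue number. In groups 9 to 13, 8 of 13 tested members were called higher, none was called lower, and the median log2 fold change was 2.44. Of those called higher, Hoxc13, Hoxd10 and Hoxd11 had 3, 2 and 0 counts over all OPC libraries. They passed the count filter through SSCs alone, so their direction was fixed by the filter, and the median includes them. In groups 1 to 8, Hoxd8 was the 1 of 19 tested members that was higher, 7 were lower, and the median was -1.45. Over all genes tested the median was -0.04. Hoxd had 4 higher of 7 tested and Hoxa 4 higher and 1 lower of 11, while Hoxb had 3 lower of 6 and Hoxc 3 lower and 1 higher of 8. These counts, 9 higher and 7 lower, were the same with TMM, RLE or upper-quartile normalization. DESeq2's Wald test called 18 of 36 members, 9 higher and 9 lower, against 22.5% of all genes, and did not call Hoxc5 and Hoxc13. It called Hoxc11 higher and Hoxa4, Hoxb3 and Hoxb9 lower in addition. Hoxb9 is of group 9, so with this test the calls were not fully split by paralogue number.

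**Figure D3:**
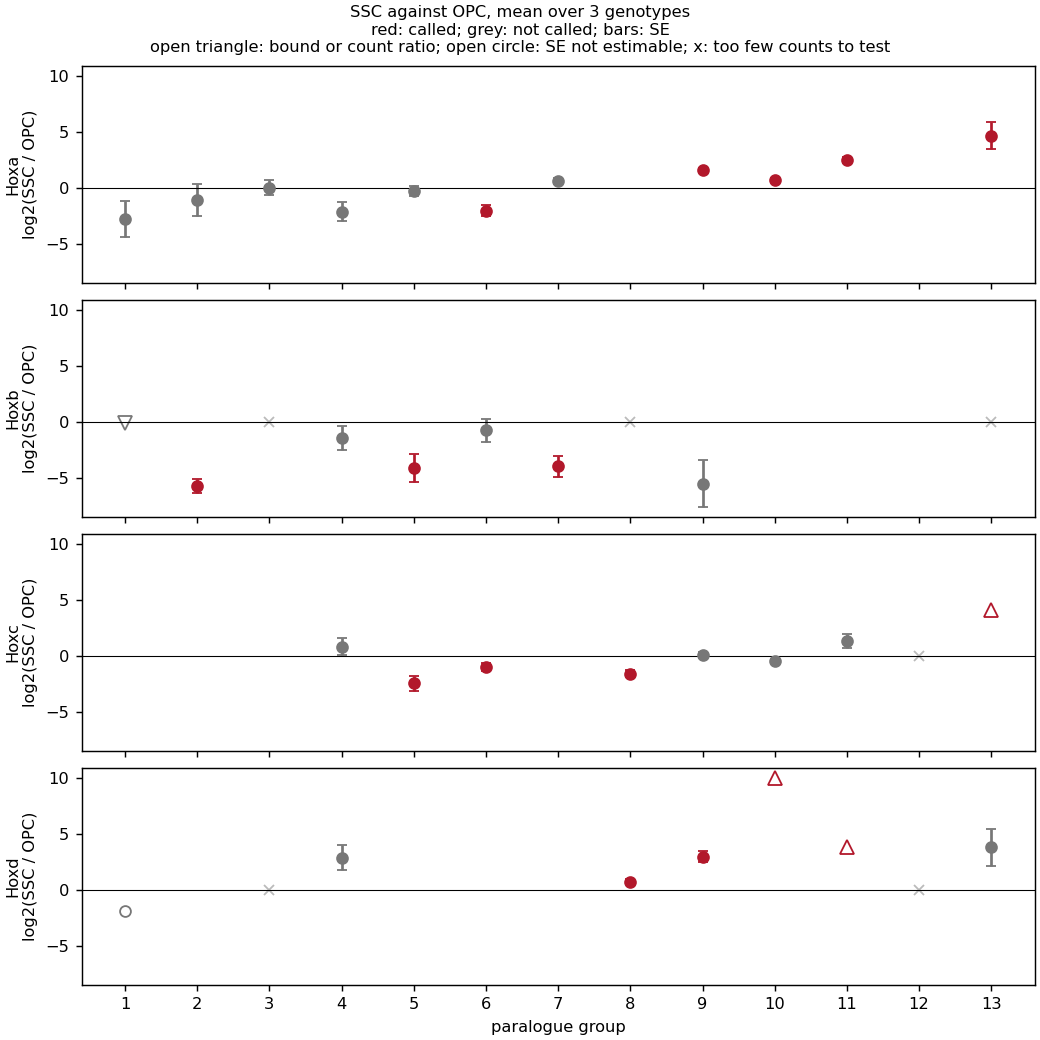
Log2 fold change of SSCs over OPCs, mean over 3 genotypes (y axis), by paralogue group (x axis) and cluster (panel). Bars are the SE, with red for called and grey for not called members. Open triangles show a lower bound or a ratio of counts over all libraries, where a cell type had 0 to 3 counts in all. An open circle marks an SE that could not be estimated. Crosses mark untested members, except Hoxb1, which was untested and has a triangle. Red symbols in groups 9 to 13 lie above 0, and red symbols in groups 2 to 7 lie below 0.

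Hoxd10 showed the widest separation. It had 157, 126 and 79 counts in the WT SSC libraries, 137, 194 and 356 in the +/1013 SSC libraries, and 381 and 272 in the 1013/1013 SSC libraries. In OPCs it had 2 counts in +/1013 replicate 2 and 0 in the other 8 libraries, although these libraries were deeper. As CPM, this was 1.25 to 6.99 (median 3.07) in SSCs and at most 0.0388 in OPCs. Against the limit of 3 counts, WT SSCs were at least 36.6-fold higher than WT OPCs, and 1013/1013 SSCs at least 125.7-fold higher than 1013/1013 OPCs. For +/1013 the ratio was 383, with a 95% counting interval of 105.7 to 3170. It rested on the 2 counts of OPC +/1013 replicate 2, without which +/1013 SSCs were at least 92.4-fold higher, and it was 249.9 and 238.6 without OPC +/1013 replicates 1 and 3. Hoxd10 was called in each genotype, with edgeR adjusted p of 0.00369 in WT, 0.00457 in +/1013 and 0.00198 in 1013/1013, and of 2.45e-05 for the mean.

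The neighbours of Hoxd10 in the cluster followed. Hoxd11, which with Hoxa11 patterns the middle limb segment, had 0 counts in all 9 OPC libraries. It had 52, 27 and 18 counts in WT SSCs, 63, 59 and 51 in +/1013 SSCs, and 1 and 55 in 1013/1013 SSCs, so that the single low SSC library was the 1013/1013 replicate 1. WT SSCs were at least 9.81-fold higher, +/1013 SSCs at least 21.1-fold and 1013/1013 SSCs at least 10.9-fold (edgeR adjusted p of the mean comparison 0.000754). The bound of 1013/1013 came from SSC replicate 2, and was 21.4 without replicate 1, while replicate 1 alone, with 1 count, gave no fold. Hoxd9 was at 7.59, 7.58 and 6.34 CPM in WT SSCs against 0.774, 1.54 and 0.0838 CPM in WT OPCs. It was at 4.47 to 7.59 CPM in all SSC libraries and 0.0838 to 1.57 CPM in all OPC libraries, with a log2 fold change of 2.96 ± 0.45 (SE, edgeR adjusted p = 0.000209). Hoxd8, at the border between the low and high groups, was less separated, at 8.49 to 18.6 CPM in SSCs and 4.39 to 14.02 CPM in OPCs (0.72 ± 0.24, edgeR adjusted p = 0.0325), and the call was lost without OPC WT replicate 3, OPC +/1013 replicate 1 or 2, OPC 1013/1013 replicate 2, SSC WT replicate 1, SSC +/1013 replicate 1 or 3, or SSC 1013/1013 replicate 2 (adjusted p at most 0.0851). The Hoxd8 call was also lost without a count filter and with replicate number as a block. Hoxd13, which patterns the digits, was over 3 counts in 4 SSC libraries and in 1 OPC library and was not called (3.77 ± 1.65, edgeR adjusted p = 0.108).

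The upstream sequences of Hoxd9 and Hoxd10 are shown because these neighbours differed between the cell types in the same direction. They are the 250 bases before the RefSeq start on build GRCm38.p6, which has mm10 coordinates, with CpG pairs in capitals.
Hoxd9 upstream, chr2:74697513-74697762, plus strand: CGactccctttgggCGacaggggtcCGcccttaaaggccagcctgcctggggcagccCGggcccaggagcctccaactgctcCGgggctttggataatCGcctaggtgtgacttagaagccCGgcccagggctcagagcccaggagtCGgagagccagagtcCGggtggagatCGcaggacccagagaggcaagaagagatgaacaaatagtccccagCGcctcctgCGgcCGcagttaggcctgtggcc
Hoxd10 upstream, chr2:74691641-74691890, plus strand: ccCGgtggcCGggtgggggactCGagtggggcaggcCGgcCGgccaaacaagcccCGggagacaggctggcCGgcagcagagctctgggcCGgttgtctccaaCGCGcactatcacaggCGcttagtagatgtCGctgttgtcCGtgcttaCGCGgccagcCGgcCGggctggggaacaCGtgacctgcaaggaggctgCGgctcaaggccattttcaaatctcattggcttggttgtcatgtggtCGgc
The Hoxd10 window holds 20 CpG pairs and the Hoxd9 window 13. Over 32851 windows of the same length in the RefSeq promoter table the median was 6 CpG pairs, and over the 24 windows of the 22 members found in the table it was 12.5. The motif TGATNNAT, a composite site for a Hox protein and a cofactor, was searched on both strands, and neither window holds it. It was in 7.68% of all windows and in 4 of the 24 member windows (16.7%), those of Hoxa2, Hoxb1, Hoxb8 and 1 start of Hoxd11.

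In the Hoxa cluster the same end was higher in SSCs. Hoxa9 was at 18.2, 20.3 and 21.1 CPM in WT SSCs and 7.96, 7.20 and 3.45 CPM in WT OPCs. Over all libraries it was at 12.3 to 21.1 CPM (median 16.9) in SSCs and 3.45 to 7.96 CPM (median 4.91) in OPCs, with a log2 fold change of 1.58 ± 0.20 (edgeR adjusted p = 3.83e-05). Hoxa11 was at 12.2, 10.7 and 8.95 CPM in WT SSCs and 2.57, 4.57 and 1.30 CPM in WT OPCs. Its range was 8.95 to 18.4 CPM in SSCs and 1.30 to 4.57 CPM in OPCs (2.44 ± 0.28, edgeR adjusted p = 1.73e-05), and 65.0% of its exon bases are free of overlap with Hoxa11os. Hoxa13, which patterns the foot and genital region, was at 1.55 to 8.17 CPM in SSCs, while 3 of 9 OPC libraries were over the limit, at 0.510 to 1.14 CPM, and 5 had 0 counts (4.65 ± 1.22, edgeR adjusted p = 0.00929). Hoxa10, the highest member in both, was at 28.8 to 65.1 CPM in SSCs and 18.9 to 38.1 CPM in OPCs, with overlapping ranges (0.67 ± 0.17, edgeR adjusted p = 0.00762).

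**Figure D4:**
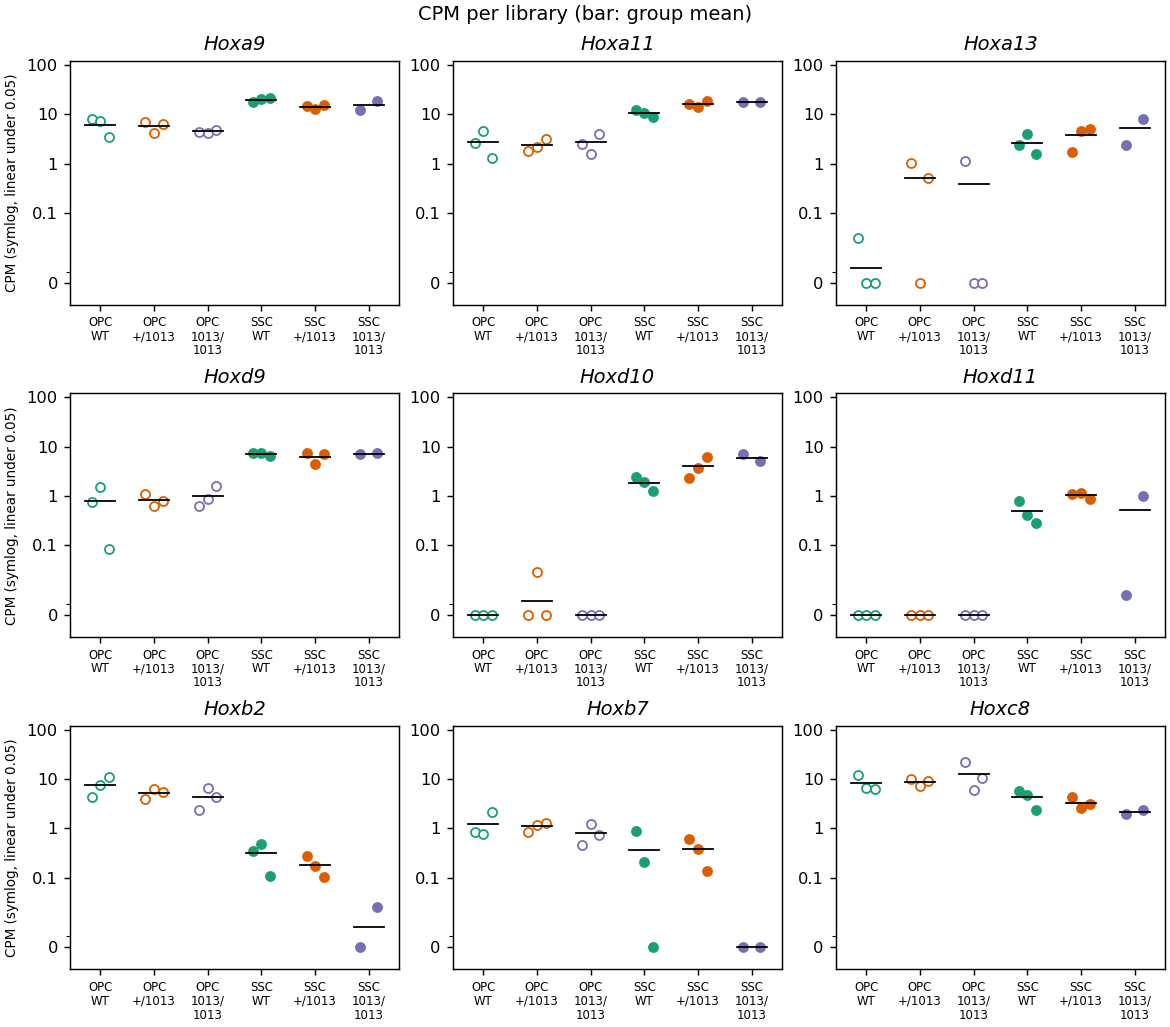
CPM of 9 members in each library (points, open for OPCs and filled for SSCs, coloured by genotype, with bars for group means) on a scale that is logarithmic above 0.05 CPM and linear below it. Hoxa9, Hoxa11, Hoxa13, Hoxd9, Hoxd10 and Hoxd11 have every SSC library above every OPC library, Hoxb2 and Hoxc8 every SSC library below, and Hoxb7 overlaps. The lowest SSC library of Hoxd11 (1013/1013 replicate 1, 1 count) is under the limit of detection.

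In all, 6 members (Hoxa9, Hoxa11, Hoxa13, Hoxd9, Hoxd10 and Hoxd11) had every SSC library above every OPC library, whereas 5.71% of the genes tested did. For Hoxd11 this rests on 1 count in 1013/1013 SSC replicate 1, which is under the limit of detection. Hoxd10 and Hoxd11 passed the count filter through SSCs alone. A further 2 members (Hoxb2 and Hoxc8) had every SSC library below every OPC library, against 5.16% of the genes tested.

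Among members lower in SSCs, Hoxb2, which acts in hindbrain patterning, changed the most. It was at 4.28, 7.57 and 11.2 CPM in WT OPCs and 0.356, 0.494 and 0.111 CPM in WT SSCs. The values were 3.96, 6.39 and 5.50 CPM in +/1013 OPCs against 0.274, 0.172 and 0.105 CPM in +/1013 SSCs, and 2.33, 6.66 and 4.26 CPM in 1013/1013 OPCs against 0 and 0.0372 CPM in 1013/1013 SSCs. The highest SSC library lay below the lowest OPC library, and the log2 fold change was -5.72 ± 0.61 (edgeR adjusted p = 9.78e-06). Hoxb7 was at 0.458 to 2.11 CPM in OPCs and 0 to 0.882 CPM in SSCs, with overlap (-3.98 ± 0.95, edgeR adjusted p = 0.00593). Hoxb5 was at 0 to 0.817 CPM in OPCs and 0 to 0.263 CPM in SSCs, with overlap (-4.13 ± 1.23, edgeR adjusted p = 0.0204), and its call was lost without either 1013/1013 SSC library, with an adjusted p of at most 0.0738.

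In the Hoxc cluster, Hoxc8, a gene of the trunk, was at 12.02, 6.61 and 6.24 CPM in WT OPCs and 5.79, 4.84 and 2.34 CPM in WT SSCs. Over all libraries its range was 5.94 to 21.8 CPM in OPCs and 1.98 to 5.79 CPM in SSCs, so that the groups met without overlap (-1.63 ± 0.31, edgeR adjusted p = 0.00114). Hoxc5 was at 2.40 to 11.4 CPM in OPCs and 0 to 5.65 CPM in SSCs (-2.47 ± 0.68, edgeR adjusted p = 0.0121). Its call was lost with DESeq2's Wald test. Hoxc6 was at 4.16 to 8.06 CPM in OPCs and 1.13 to 5.47 CPM in SSCs (-1.02 ± 0.33, edgeR adjusted p = 0.0305), and its call was lost without OPC WT replicate 2, OPC +/1013 replicate 1 or 2, OPC 1013/1013 replicate 1, SSC WT replicate 1 or 3, or SSC 1013/1013 replicate 2 (adjusted p at most 0.0897). Without a count filter the Hoxc6 call was lost too. Hoxa6 was at 0.374 to 1.22 CPM in OPCs and 0.0183 to 0.696 CPM in SSCs (-2.06 ± 0.49, edgeR adjusted p = 0.00531). At the far end of the cluster, Hoxc13 had 3 counts in 1 OPC library and 0 in the other 8, and up to 12 counts in SSCs, a ratio of 17.1 with a 95% counting interval of 5.46 to 86.0 (edgeR adjusted p = 0.0210). Its call was lost with DESeq2's Wald test and without 1013/1013 SSC replicate 2. Without OPC WT replicate 1, which held all 3 counts, SSCs were at least 1.85-fold higher in Hoxc13.

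Other members of the high-numbered groups overlapped between the cell types. Hoxc10 was at 10.7 to 15.3 CPM in OPCs and 7.32 to 13.8 CPM in SSCs (-0.43 ± 0.16, edgeR adjusted p = 0.0540), and Hoxc9 at 3.41 to 9.60 CPM and 2.67 to 10.5 CPM (0.05 ± 0.30, edgeR adjusted p = 1.00). Hoxc11 was at 0.0162 to 0.264 CPM in OPCs and 0.0791 to 1.08 CPM in SSCs (1.31 ± 0.60, edgeR adjusted p = 0.109). Hoxb9 was over 3 counts in 4 OPC libraries, at up to 2.60 CPM, and in the 3 WT SSC libraries, at 0.573, 0.255 and 0.0791 CPM, and had 0 counts in all 5 mutant SSC libraries (-5.53 ± 2.08, edgeR adjusted p = 0.0624). DESeq2's Wald test called Hoxb9 lower in SSCs, as did edgeR without OPC WT replicate 1 (-5.70, edgeR adjusted p = 0.0471). Hoxc12 was over the limit in 4 OPC libraries and 1 SSC library, at up to 0.222 CPM, and was not tested.

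The cell-type comparison was then made within each genotype. In WT, 6 of 32 tested members were called (11.4% of all genes tested), 5 higher in SSCs (Hoxa9, Hoxa11, Hoxd9, Hoxd10 and Hoxd11; 5.55% of all genes) and 1 lower (Hoxb2; 5.86%). In +/1013 the same 6 symbols were called (12.5% of all genes tested, 6.44% higher and 6.02% lower), and 3 of them remained without OPC +/1013 replicate 2 or without SSC +/1013 replicate 1. In 1013/1013 these 6 and also Hoxa6, Hoxb7 and Hoxc8, all 3 lower in SSCs, were called (9 members, against 13.1% of all genes tested, 6.94% higher and 6.12% lower), and 5 were called without 1013/1013 SSC replicate 1. With only the 1013/1013 libraries in the fit, 0 of 25 tested members were called, against 511 of 16299 genes. Hoxa9 had log2 fold changes of 1.68 ± 0.33 in WT, 1.31 ± 0.33 in +/1013 and 1.76 ± 0.36 in 1013/1013. Hoxa11 had 1.92 ± 0.46, 2.74 ± 0.47 and 2.68 ± 0.50, and Hoxd9 had 3.16 ± 0.77, 2.90 ± 0.76 and 2.81 ± 0.80. Hoxb2 had -4.58 ± 0.87 in WT and -4.83 ± 0.88 in +/1013, and in 1013/1013 its SSC libraries held 2 counts in all. In WT the Hoxd11 call was lost when any 1 of the 6 WT libraries was left out (adjusted p at most 0.0845), and the Hoxa11 call without OPC WT replicate 3 or SSC WT replicate 1 (at most 0.0590). In +/1013, single libraries ended the calls of Hoxa9 (OPC replicate 2, SSC replicates 1 and 3), Hoxd9 (OPC replicates 2 and 3, SSC replicates 1 and 3) and Hoxd11 (OPC replicates 2 and 3, SSC replicate 1), with adjusted p of at most 0.0905. In 1013/1013 they ended those of Hoxa6 (SSC replicate 1), Hoxb7 (either SSC replicate), Hoxc8 (OPC replicate 1, SSC replicate 1), Hoxd9 (OPC replicates 1 and 2, either SSC replicate) and Hoxd11 (any OPC replicate, SSC replicate 2), with adjusted p of at most 0.223. Over all genes tested, the median change (log2) was 0.17 in WT, 0 in +/1013 and -0.20 in 1013/1013. The Hoxd10 and Hoxb2 calls were kept in every genotype whichever library was left out.

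The genotype comparisons within a cell type asked whether the 1013 allele moved the code. No member was called in SSCs or in OPCs in any of the 6 comparisons, by edgeR adjusted over all genes. Comparisons with WT share the WT libraries, and p-values measure the spread between these pools. The background was as low, with 0.0736% of all genes called between +/1013 and WT SSCs, 0.00617% between 1013/1013 and WT OPCs, and 0% in the other 4. At an unadjusted p under 0.05, 6 of 28 tested members passed between 1013/1013 and WT SSCs (18.3% of all genes), 3 between 1013/1013 and +/1013 SSCs (5.53%) and 1 between +/1013 and WT SSCs (17.3%). In OPCs 1 of 26 tested members passed for +/1013 against WT (2.04%), and 0 for 1013/1013 against WT (3.38%) and against +/1013 (3.17%). DESeq2's Wald test called 2 members between 1013/1013 and WT SSCs, Hoxa6 and Hoxd10, and 1 between 1013/1013 and +/1013 SSCs, Hoxa6, against 6.58% and 0.833% of all genes. It called 0 members between +/1013 and WT SSCs (4.86% of all genes) and in the OPC comparisons of +/1013 with WT (0.226%), 1013/1013 with WT (0.222%) and 1013/1013 with +/1013 (0.267%).

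In SSCs, the values of the leading members were as follows. Hoxa6 was at 0.480, 0.494 and 0.696 CPM in WT, 0.651, 0.307 and 0.367 CPM in +/1013, and 0.0183 and 0.0186 CPM (1 count each) in 1013/1013. Both 1013/1013 libraries were below the limit of detection and the other 6 above it, a ratio of WT to 1013/1013 of 30.0 with a 95% counting interval of 8.12 to 251.2 (edgeR adjusted p = 0.134). Hoxb7 had 57, 14 and 0 counts in WT, 35, 20 and 8 in +/1013, and 0 in both 1013/1013 libraries, so that WT was at least 6.57-fold higher (edgeR adjusted p = 0.249). That bound rested on WT replicate 1, and without it was 1.89. Hoxb9 had 37, 17 and 5 counts in WT and 0 in all 5 mutant libraries, and WT was at least 5.62-fold higher than +/1013 and at least 5.45-fold higher than 1013/1013 (edgeR adjusted p = 0.190 and 0.220). Without WT replicate 1 these bounds were 3.10 and 3.01. Hoxd10 went the other way, at 2.43, 1.89 and 1.25 CPM in WT, 2.35, 3.72 and 6.22 CPM in +/1013, and 6.99 and 5.06 CPM in 1013/1013. The log2 fold change of 1013/1013 over WT was 1.72 ± 0.64 (edgeR adjusted p = 0.227). Hoxa11 was at 12.2, 10.7 and 8.95 CPM in WT, 15.9, 13.8 and 18.4 CPM in +/1013, and 17.5 and 17.4 CPM in 1013/1013, with log2 fold changes of 0.58 ± 0.25 and 0.73 ± 0.28 against WT (edgeR adjusted p = 0.293 and 0.235). Hoxa5 was at 11.7 CPM in 1013/1013 replicate 1 and at 0.767 to 2.34 CPM in the other 7 SSC libraries. Without 1013/1013 replicate 2, replicate 1 was the only 1013/1013 SSC library. Hoxa5 then had log2 fold changes of 2.66 against WT and 3.61 against +/1013, and the medians over all genes were -0.80 and -0.33. Without 1013/1013 replicate 1, the Hoxa5 difference of 1013/1013 from +/1013 was -0.07. Other measures of the SSC libraries also differed by genotype. The WT libraries held 21449 to 22599 genes with a count, the +/1013 libraries 17808 to 19227 and the 1013/1013 libraries 15748 and 19222, and reads on no gene were 3.68% to 4.15%, 1.53% to 1.80% and 1.504% to 2.69%. Type I collagen transcripts took 2.24% to 2.78% of counts in WT, 0.563% to 1.17% in +/1013 and 0.865% to 0.997% in 1013/1013 SSCs. The 6 osteoblast markers summed to 8145 to 12102 CPM in WT, 1929 to 3619 CPM in +/1013 and 1971 to 4501 CPM in 1013/1013 SSCs, with median log2 fold changes against WT of -1.31 and -0.92. The 5 chondrocyte markers had medians of -3.37 and -2.34 against WT, while their summed CPM overlapped between the genotypes. The 12 hematopoietic markers summed to 161 to 2848 CPM in WT, 33.6 to 77.1 CPM in +/1013 and 442 to 818 CPM in 1013/1013 SSCs. Their median log2 fold changes against WT were -4.54 and -0.89. In both SSC comparisons with WT, 0 genes of these 3 marker lists were called, where 0.0736% and 0% of all genes were. The part of these measures in the low counts of Hoxa6, Hoxb2, Hoxb7 and Hoxb9 in the mutants was not tested. Between 1013/1013 and WT SSCs the median log2 value was -0.23 over all genes and -0.34 over the 28 tested members. Groups 9 to 13 made up 69.2% ± 1.41 of the Hox pool in WT SSCs, 75.7% ± 4.82 in +/1013 SSCs (n = 3 each) and 73.1% ± 7.38 in 1013/1013 SSCs (n = 2). Their range in WT (67.6% to 70.1%) lay below that in +/1013 (70.6% to 80.2%), and the range in 1013/1013 (67.9% to 78.3%) overlapped both. Group 11 made up 9.89% ± 1.20 in WT, 13.97% ± 0.145 in +/1013 and 14.2% ± 0.207 in 1013/1013 SSCs. Its range was 13.8% to 14.3% in the mutant libraries and 8.52% to 10.8% in the WT libraries. Differences of these shares between genotypes were not tested.

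**Figure D5:**
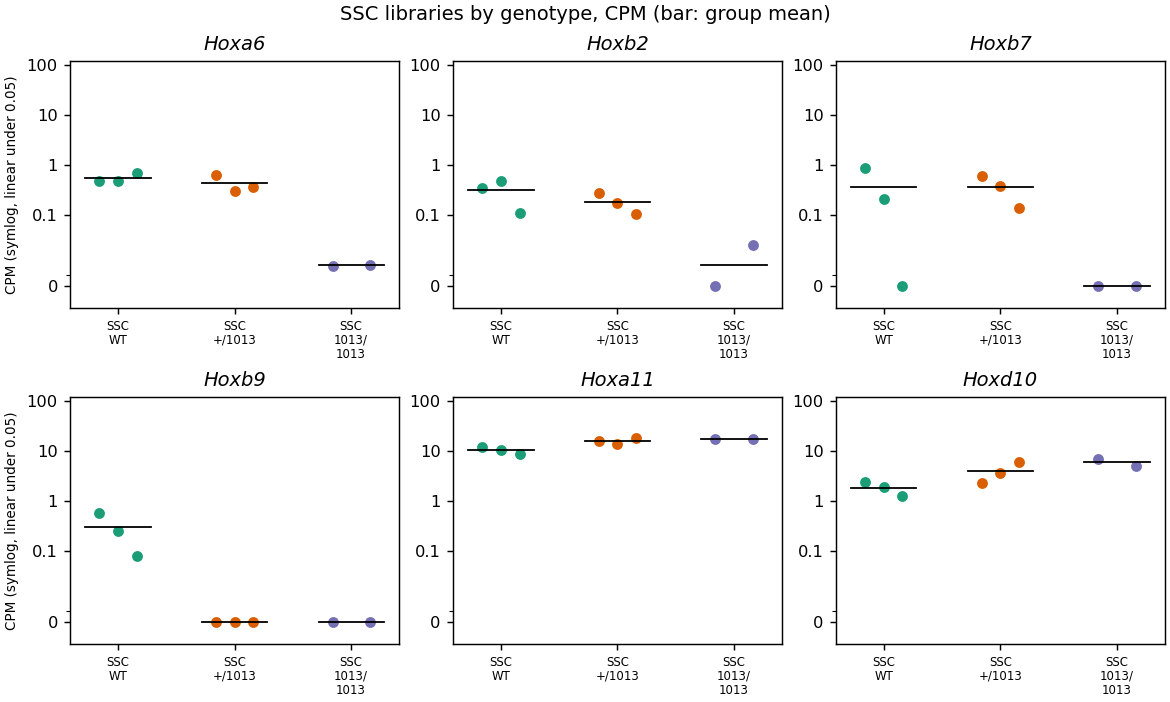
CPM of 6 members in each SSC library by genotype (points, with bars for group means) on a scale that is logarithmic above 0.05 CPM and linear below it. Hoxa6, Hoxb2 and Hoxb7 are at or near 0 in both 1013/1013 libraries and Hoxb9 is at 0 in all 5 mutant libraries, while Hoxd10 lies at 1.25 to 2.43 CPM in WT and at 5.06 and 6.99 CPM in 1013/1013.

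In OPCs, Hoxa4 had the smallest p against WT in both mutants. It was at 0.0136, 0.114 and 0.126 CPM in WT, 0.384, 0.427 and 0.567 CPM in +/1013, and 0.458, 0.142 and 0.438 CPM in 1013/1013. The log2 fold changes against WT were 2.42 ± 1.01 and 2.02 ± 0.99 (edgeR adjusted p = 1.00 in both). Hoxa13 had 3 counts in 1 WT OPC library, 68 and 36 counts in 2 of 3 +/1013 libraries and 82 counts in 1 of 3 1013/1013 libraries, and 0 in the other libraries. Its log2 fold change of 1013/1013 over WT was 4.53 ± 2.77 with all libraries and -2.99 without 1013/1013 replicate 1. Hoxd1, at 0, 0.357 and 0.565 CPM in WT, had 0 counts in all +/1013 OPC libraries (edgeR adjusted p = 1.00), and Hoxc5 was lower in 1013/1013 than in +/1013 by -0.89 ± 0.45 (edgeR adjusted p = 1.00). Hoxd10 and Hoxd11 were not tested in OPCs, where they had at most 2 counts.

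The difference of the genotype effect between SSCs and OPCs was tested in the fit of all 17 libraries. No member was called for either allele dose, while 0.084% of all genes were called for +/1013 and 0.153% for 1013/1013. The smallest adjusted p was for Hoxa6 under 1013/1013 (-4.99 ± 1.27, edgeR adjusted p = 0.150), followed by Hoxb7 (adjusted p = 0.234) and Hoxb2 (-3.17 ± 1.25, adjusted p = 0.276). At an unadjusted p under 0.05 these 3 of 32 members passed (15.0% of all genes), and under +/1013 0 passed (10.6%), where Hoxb6 (-4.60 ± 2.53) and Hoxc13 (4.75 ± 2.55) had the smallest p (edgeR adjusted p = 0.546 and 0.550). The median of this difference over all genes was -0.14 for +/1013 and -0.39 for 1013/1013. DESeq2 called Hoxb9 for +/1013 (1.53% of all genes) and Hoxa6 and Hoxb9 for 1013/1013 (3.87%). Without 1013/1013 SSC replicate 2, 1 library was left in that group. The edgeR differences for 1013/1013 were then 3.07 for Hoxa5, -6.50 for Hoxb2 and -9.60 for Hoxc5, with a median over all genes of -0.93.

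Genes that work with the code were read from lists chosen together with the members, and their counts are given for the mean comparison of SSCs with OPCs, where 30.2% of all genes were called. Of 9 Hox cofactor genes tested, 2 were higher in SSCs, among them Meis2 (0.99 ± 0.26, edgeR adjusted p = 0.00878), and Pknox1 (-0.82 ± 0.25) was lower. Meis2 was at 6.18 to 15.0 CPM in SSCs and 2.65 to 6.43 CPM in OPCs. Of the 4 genes of limb type, Pitx1, which marks the hind limb, was at 10.7 to 36.9 CPM in SSCs and 6.05 to 15.0 CPM in OPCs and was higher (1.16 ± 0.28, edgeR adjusted p = 0.00628). Tbx4, its hind limb partner, was at 0 to 36.9 CPM (median 24.4) in SSCs and 0.438 to 17.9 CPM (median 4.53) in OPCs and was not called (1.94 ± 0.83, edgeR adjusted p = 0.0867). The forelimb gene Tbx5 had a median of 0.860 CPM in SSCs and 0 CPM in OPCs, with 7.09 CPM in its highest SSC library.

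Of 22 limb patterning factors tested, 10 were higher and 3 lower in SSCs. Osr1 (3.99 ± 0.30) and Msx1 (3.50 ± 0.23), factors of limb and craniofacial mesenchyme, Hand2 (4.25 ± 0.81), a limb bud patterning factor, and Lhx9 (6.64 ± 1.36) were among the higher, and Irx5 (-3.53 ± 0.41) and Sall1 (-4.94 ± 1.67) among the lower. Osr1 was at 26.8 to 89.6 CPM in SSCs and 1.19 to 5.92 CPM in OPCs, and Irx5 at 0.901 to 5.80 CPM and 16.7 to 70.3 CPM. Of 12 head and somite factors tested, 4 were higher, among them Pax9 (4.57 ± 1.21) and Lhx8, and 3 were lower, Alx1 (-6.52 ± 1.05), Alx4 (-4.86 ± 0.98) and Pax3. Lhx8 had 0 counts in all OPC libraries, and Alx4 was at 3.83 to 13.1 CPM in OPCs and 0 to 2.49 CPM in SSCs. Of 16 retinoic acid pathway genes tested, which make, bind or sense a signal known to switch on Hox genes, 4 were higher, among them Crabp2 (3.83 ± 0.50), Aldh1a2 (4.21 ± 1.29) and Aldh1a3 (2.66 ± 0.23), and the receptor gene Rxra was lower (-0.71 ± 0.20).

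Of 22 chromatin regulators of the Hox clusters tested, 4 were higher and 1 lower in SSCs. Kmt2a (1.24 ± 0.28), a histone methyltransferase that keeps Hox genes active, Cbx7 (1.62 ± 0.52) and Ezh1 (1.02 ± 0.30), both of Polycomb complexes, and the demethylase gene Kdm6b (0.97 ± 0.34) were higher, and Wdr5 (-0.59 ± 0.16) was lower. Kmt2a was at 15.96 to 35.5 CPM in SSCs and 3.31 to 18.6 CPM in OPCs. Of 7 protein-coding genes tested that flank the clusters, Skap2, beside the Hoxa cluster, was lower in SSCs (-0.99 ± 0.24, edgeR adjusted p = 0.00618) and none was higher. No gene of these lists was called in the 6 genotype comparisons or for either difference of effects.

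The clusters also hold 43 annotated non-coding genes, of which 14 were tested, 4 were higher and 2 lower in SSCs. Hoxa11os, antisense to Hoxa11, was at 2.33 to 9.29 CPM in SSCs and 0 to 1.12 CPM in OPCs (3.55 ± 0.54, edgeR adjusted p = 0.000229). Without strand, reads of Hoxa11 and Hoxa11os where they overlap cannot be told apart. Hoxd3os1 was at 1.30 to 3.89 CPM in SSCs and 0.680 to 1.85 CPM in OPCs (0.92 ± 0.32, edgeR adjusted p = 0.0400). Hotair, which lies in the Hoxc cluster, was at 0 to 0.611 CPM in SSCs and 0 to 1.48 CPM in OPCs and was not called (-1.66 ± 1.01, edgeR adjusted p = 0.235), nor was Gm53 in the Hoxb cluster, at 0 to 0.454 CPM and 0 to 1.35 CPM (-2.53 ± 1.26, edgeR adjusted p = 0.141). The other called genes were 9530018H14Rik and Gm11539 (higher) and Gm11536 and Hoxb3os (lower).

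Markers of other cell types that the sorts could hold were read beside these results. The 12 hematopoietic markers summed to 37.1 to 9461 CPM in OPCs (median 84.3) and 33.6 to 2848 CPM in SSCs (median 301.7), and the defining gene Ptprc was highest in WT SSC replicate 3 (119.6 CPM), 1013/1013 OPC replicate 2 (118 CPM) and WT OPC replicate 3 (52.8 CPM). In these libraries Hoxb2 was at 0.111, 6.66 and 11.2 CPM and Hoxa9 at 21.1, 4.16 and 3.45 CPM. Hoxb2 in WT OPC replicate 3 was the highest of the 9 OPC libraries and Hoxa9 the lowest, and Hoxa9 in WT SSC replicate 3 was the highest of the 8 SSC libraries. The Hoxb share of the Hox pool was also highest in the 2 OPC libraries with the most Ptprc, at 16.9% in WT replicate 3 and 11.1% in 1013/1013 replicate 2 against 2.17% to 8.86% in the other 7. WT OPC replicate 3 had the highest Hoxb5 (0.817 CPM), Hoxb7 (2.11 CPM) and Hoxb9 (2.60 CPM) of all libraries. Hoxb2, Hoxb5 and Hoxb7 were called in the mean comparison when either of these OPC libraries was left out in turn. Each of these fits kept the other library, so they cannot show the part of blood cells. In WT SSC replicate 3 the Hoxb share was 0.378%, between those of the other SSC libraries. The 7 muscle markers summed to 47.6 to 432 CPM in OPCs and 2.72 to 119.96 CPM in SSCs, and the 3 Schwann cell markers to 35.9 to 332 CPM in OPCs and 0 to 5.38 CPM in SSCs. The 5 chondrocyte markers summed to 14708 to 92318 CPM in OPCs and 3349 to 21165 CPM in SSCs. Comp alone was at 3212 to 10416 CPM in OPCs and 3301 to 20930 CPM in SSCs, and made up most of the SSC sums. Col2a1 was at 9566 to 70044 CPM in OPCs and 3.52 to 3315 CPM in SSCs. Of the 5, 4 were called lower in SSCs, with a median log2 fold change of -5.38. The 4 tendon and periosteum markers summed to 938 to 3461 CPM in OPCs and 1548 to 5202 CPM in SSCs. The 6 endothelial markers summed to 2.62 to 37.1 CPM in OPCs and 21.3 to 119 CPM in SSCs, the 6 erythroid markers to 7.82 to 3154 CPM and 111 to 879 CPM, and the 3 perivascular muscle markers to 68.2 to 506 CPM and 57.4 to 299.6 CPM. Of the perivascular muscle markers, 1 was called higher and 1 lower in SSCs. The part of these cells in the Hox differences was not tested.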

How the data were processed

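Libraries were made with SMART-Seq v4 and Nextera XT from RNA of sorted pools, which does not keep strand. The deposited values are counts of reads per gene, which the authors made with HTSeq after removing reads under 50 bp and aligning to mm10 with STAR. Versions, annotation release and strand setting are not given in the sources used here. Rows that name no gene were left out of totals. They included reads on no feature, 1.15% to 2.62% of reads in OPCs and 1.504% to 4.15% in SSCs. Ensembl identifiers were matched to GENCODE M21, in which 55154 of 55335 were found.

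Genes were filtered with filterByExpr and scaled by TMM, and tested by the quasi-likelihood method of edgeR 4.0.16 in R 4.3.3, with limma 3.58.1 and DESeq2 1.42.0 as further tools. Cell types and differences of effects were tested in 1 fit of 17 libraries, and genotypes within each cell type. A call needed an adjusted p under 0.05 and 1.5-fold. SE is the log2 fold change divided by the square root of F. The scripts were tested on simulated data. Alternatives were RLE and upper-quartile scaling, no filter, a minimum of 10 counts in every library, bias-adjusted quasi-likelihood, a replicate block, DESeq2, fewer or more groups in the fit, and leaving out each library. The members and lists were chosen with earlier results of these data known. Singled out were the highest member of each cluster, members called, groups 9 to 13, the 2 smallest p in comparisons without a call, up to 6 called genes per list, and the 4 non-coding genes of highest CPM in any library. Some list genes that this rule names are not reported here. Deviations from group means correlated at -0.21 to 0.24 within a cell type and -0.27 to 0.27 between cell types for libraries of the same replicate number. Different numbers gave -0.28 to 0.33 and -0.24 to 0.35. OPC and SSC libraries of the same number and genotype were at 0.082, 0.159 and 0.274 in WT and -0.020 to 0.041 in the mutants. OPC libraries with number 1 were at 0.099 to 0.242, those with numbers 2 and 3 at -0.21 to 0.123. The numbers were not taken as pairs in the main fits.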

Additional observations from a re-analysis of the deposited data

How the results depend on the processing

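Of 868 recomputed values, for the members called in a comparison or, where none was, the 2 with the lowest p, 790 kept their direction and side of the threshold, 72 lost a call, 4 gained one and 2 reversed, both named with a single library. Over all members and comparisons, 52 calls of 18 members arose under an alternative only, 19 of them with DESeq2 and 9 without SSC 1013/1013 replicate 2. With at least 10 counts in every library, 10 members were left to test, and 2 were called in WT, 3 in 1013/1013 and 7 in the mean comparison of SSCs with OPCs. Of the 10144 genes tested there, 2610 were called in WT, 2802 in 1013/1013 and 4182 in the mean comparison. DESeq2 called 10 of 36 members in the +/1013 comparison of cell types (13.7% of all genes). It called 2 between 1013/1013 and WT SSCs (6.58%) and 1 between 1013/1013 and +/1013 SSCs (0.833%). For the differences of the +/1013 and 1013/1013 effects it called 1 and 2 (1.53% and 3.87%). With only the 2 groups compared in the fit, 0 of 25 members were called between 1013/1013 SSCs and OPCs, against 511 of 16299 genes. The cause of these changes was not tested, apart from the fewer members and libraries. With the replicate block, 5 members were called in WT, 5 in +/1013, 7 in 1013/1013 and 15 in the mean comparison, and 0 elsewhere. Of the 20238 genes tested, 2042, 2270, 2063 and 5633 were called in these comparisons, in the same order.

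Leaving out 1 library at a time gave 4 to 6 called members in WT, 3 to 6 in +/1013, 5 to 8 in 1013/1013 and 14 to 18 for the mean. It gave 0 to 3 for the difference of the 1013/1013 effect, 0 to 0 for that of +/1013, 0 to 1 for 1013/1013 against WT and against +/1013 in SSCs, and 0 to 0 for +/1013 against WT SSCs and all OPC comparisons. Values above 0 for the differences of effects and the genotype comparisons arose only without SSC 1013/1013 replicate 2. That fit leaves 1 library assumed to vary like the others, and calls over all genes rose with it. The reversed values were Hoxa13 in 1013/1013 against WT OPCs (-2.99 without OPC 1013/1013 replicate 1, and at most 7.51 without any other library) and Hoxa5 in 1013/1013 against +/1013 SSCs (-0.068 without SSC 1013/1013 replicate 1, and 3.61 without replicate 2). On plain library totals the summed Hox level was 33.8 CPM per kb in OPCs and 64.7 in SSCs. Depth limits members under 3 counts, and 2 libraries limit 1013/1013 SSCs.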
